A study of Homo sapiens with 8 samples.

Results

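The genes described here are the ZFP36, BTG and TOB families of mRNA decay regulators, as measured in U2OS cells, an established human osteosarcoma line. They were chosen by name: ZFP36, ZFP36L1, ZFP36L2, BTG1, BTG2, BTG3, TOB1 and TOB2 are 8 of the 22504 genes in the table. The choice was made with earlier results of these data known. Shares over all genes therefore stand beside their counts as a description only. All 8 had a row and all 8 passed the filter on low values (at least 1 FPKM in at least 2 libraries), as did 12996 genes in all. FPKM scales the sequenced fragments of a gene by transcript length and by the library's mapped fragments, so levels of different genes can be set side by side.

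The study compared cells that overexpress an actin mutant, G13R, with cells that express GFP as the control. Both kinds of cell were taken in normal growth and again with serum stimulation, in 4 groups of 2 libraries: GFP normal, GFP serum, G13R normal and G13R serum. G13R is a substitution that keeps actin monomeric, and monomeric actin holds back the MRTF coactivators of SRF, a factor through which serum turns on genes. Which actin gene carries the mutation, what drives the transgenes, whether the cells were pools or single clones, and for how long serum was given or first withheld, are not stated in the labels. Whether the 2 libraries of a group came from different cultures is not stated. The p-values therefore rest on library-to-library spread, which can be technical.

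ACTB, the beta-actin gene, lay between 7949 and 11245 FPKM in the 4 G13R libraries and between 2543 and 2779 FPKM in the 4 GFP libraries. Of 12 osteoblast lineage markers, 8 reached 1 FPKM in some library, among them SPARC, COL1A1, SPP1 and RUNX2, while TWIST1 was listed at 0 in all 8 libraries and IBSP and SP7 stayed under 0.16 FPKM. GFP serum replicate 2 stood apart: it lay at 44.7 on the first principal component (53.9% of the variance) against 26.0 for GFP serum replicate 1, and 186 genes were over 2-fold apart between those libraries, against 87 to 102 in the other groups. Summed epithelial markers (8 genes) were 10.2 to 12.1 FPKM in GFP normal and 21.8 to 23.3 FPKM in GFP serum libraries, and 10.5 to 12.2 and 17.5 to 17.7 FPKM in G13R normal and G13R serum libraries. Within that list CLDN4 went from 2.29 and 2.32 to 12.1 and 11.1 FPKM in GFP cells, while CDH1 went the other way, from 4.47 and 2.08 to 1.49 and 0.50 FPKM. The summed osteoblast markers were also higher with serum, at 618.7 to 701.3 against 785.5 to 936.8 FPKM in GFP and 482.3 to 526.4 against 602.4 to 669.5 FPKM in G13R libraries. The part of either list in the serum results was not tested.

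Both families end the life of mRNAs by bringing the CCR4-NOT complex to them, which shortens the poly(A) tail and opens the way to decapping and exosome decay. ZFP36 proteins (ZFP36 is also called tristetraprolin) carry tandem zinc fingers that bind the AU-rich heptamer UAUUUAU downstream of the stop codon, found in many mRNAs of cytokines and immediate-early genes. BTG and TOB proteins share a domain that binds the CAF1 deadenylase subunits CNOT7 and CNOT8, and TOB1 and TOB2 also bind the cytoplasmic poly(A)-binding protein. Several of the genes are known to be turned on by growth factors or stress and to hold back proliferation.

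The genes themselves carry the heptamer to unlike degrees. In the GENCODE version 29 transcripts, the stretch after the stop codon held TATTTAT (the DNA spelling, counted on the transcript strand) 3 times in ZFP36, ZFP36L1 and ZFP36L2, 2 times in BTG3, once in BTG1, BTG2 and TOB2, and 0 times in TOB1. Among 18907 genes, 28.9% had at least 1. Length matters for such a count: ZFP36 has only 713 bases after the stop codon, and 1.24% of genes with a stretch of like length (0.8 to 1.25 times) held as many, against 4.45% for ZFP36L1 and 4.82% for ZFP36L2. For BTG3 the share was 2.3%, for BTG2 46.4%, for TOB2 54.2% and for BTG1, at 3802 bases, 62.2%. The windows below are 30 bases long, with the heptamer in capitals, and are shown because the proteins made from the first 3 genes bind this word. A match is a description of the sequence, not a site shown to be bound.
ZFP36: ccttTATTTATgacgacttTATTTATtcta
ZFP36L1: ttatcaaaacgTATTTATtgccaaactatg
ZFP36L2: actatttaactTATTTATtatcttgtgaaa
BTG2: aaatgaagagcTATTTATatatattatttt
BTG3: ttggacttgagTATTTATatattgtgcatc
The ZFP36 window holds 2 heptamers with 8 bases between them, while each of the other windows holds 1. In BTG2 the heptamer stands early, in a window that begins at base 90 after the stop codon.

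Promoters are shown for ZFP36, ZFP36L1, BTG2 and BTG1, chosen after the search because they hold between them each of the 6 words that were found. The RefSeq promoter table (GRCh38.p14) had 9 promoters for 7 of the 8 genes, and motifs were searched on both strands in the 250 bases before each start. Capitals mark the motifs found. The first is ZFP36, chr19:39406597-39406846, plus strand, where both runs of capitals are the GC box GGGGCGGGG read on the other strand. The second is the downstream start of ZFP36L1, chr14:68793417-68793666, minus strand, where the capitals are the cyclic AMP response element TGACGTCA. BTG2, chr1:203305269-203305518, plus strand, has in capitals TGACG, GCGNGGGCG (the word bound by EGR factors) at 2 places, and 2 GC boxes, the first of which overlaps the second EGR word. BTG1, chr12:92145847-92146096, minus strand, has TGTTTAC (the word bound by FOXO factors), TGACG at 2 places on the other strand, and TATAAA.
ZFP36: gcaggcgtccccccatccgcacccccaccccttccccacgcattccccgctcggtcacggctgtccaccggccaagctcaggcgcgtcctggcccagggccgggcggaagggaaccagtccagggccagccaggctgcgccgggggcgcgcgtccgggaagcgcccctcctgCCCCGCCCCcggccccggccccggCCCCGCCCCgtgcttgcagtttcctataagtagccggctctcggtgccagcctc
ZFP36L1: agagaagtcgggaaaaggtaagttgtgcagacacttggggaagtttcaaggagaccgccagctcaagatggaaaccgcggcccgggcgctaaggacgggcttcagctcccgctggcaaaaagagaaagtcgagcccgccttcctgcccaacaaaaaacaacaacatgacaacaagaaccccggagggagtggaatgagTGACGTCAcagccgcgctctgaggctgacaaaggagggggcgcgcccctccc
BTG2: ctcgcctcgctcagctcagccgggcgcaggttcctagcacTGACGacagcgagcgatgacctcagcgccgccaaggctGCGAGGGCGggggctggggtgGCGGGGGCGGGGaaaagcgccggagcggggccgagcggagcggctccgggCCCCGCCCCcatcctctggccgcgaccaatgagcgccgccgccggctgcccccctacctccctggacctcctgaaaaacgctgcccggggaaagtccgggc
BTG1: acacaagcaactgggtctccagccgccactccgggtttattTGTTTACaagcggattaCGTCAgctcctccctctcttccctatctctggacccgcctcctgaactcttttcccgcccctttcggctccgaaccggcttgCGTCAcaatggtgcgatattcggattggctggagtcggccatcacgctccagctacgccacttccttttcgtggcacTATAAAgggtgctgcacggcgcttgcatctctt
Across 35116 promoters of the same length, TGACGTCA was in 1.65%, TGTTTAC in 2.98%, GCGNGGGCG in 8.41%, TATAAA in 10.7%, GGGGCGGGG in 15.1% and the shorter TGACG, which also lies inside TGACGTCA, in 21.2%. Among the 7 genes, GGGGCGGGG was in 5 (ZFP36, BTG2, BTG3, TOB1 and TOB2), TGACG in 4 (ZFP36L1, BTG1, BTG2 and TOB1) and each of the other 4 words in 1. Counted by promoter, GGGGCGGGG and TGACG were each in 5 of the 9. The promoters with GGGGCGGGG were 68.4 to 80.4% G and C, beside a median of 58.0% over all promoters. The AP-1 word TGANTCA (6.57% of promoters) and the CArG box bound by SRF (1.16%) were in 0 of the 9 windows, which says only that these letters are not in these bases.

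In normal growth the 8 genes spanned a wide range of levels. ZFP36L1 was the highest, at 76.4 ± 8.44 FPKM (SD, n = 2) in GFP cells, followed by BTG3 at 56.7 ± 0.39 FPKM. ZFP36L2 (18.2 FPKM), TOB2 (15.9), BTG2 (13.7), BTG1 (10.5) and TOB1 (8.41) followed as group means, and ZFP36 was the lowest at 3.17 ± 0.35 FPKM. In GFP normal libraries each gene lay above the next in both libraries, so this order held beyond the spread between them. In G13R normal cells the same genes led and trailed, with ZFP36L1 at 82.3 and ZFP36 at 3.29 FPKM, but TOB2 (14.9), BTG1 (12.8) and BTG2 (11.9) overlapped their neighbours in the order.

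After serum the order changed. In GFP cells ZFP36L1 still led at 206.8 FPKM, followed by ZFP36L2 (49.7 FPKM), which lay above BTG3 (46.1 FPKM) in both libraries. BTG2 (49.5 FPKM) could not be placed, because its 2 libraries lay on either side of both. TOB1, BTG1, ZFP36 and TOB2 (27.5, 24.2, 21.1 and 16.5 FPKM) overlapped each with the next. In G13R cells the order was ZFP36L1 (208.5 FPKM), ZFP36L2 (44.9), BTG3 (41.2), BTG2 (23.7) and TOB2 (20.3), each above the next in both libraries, and then BTG1 (18.1), TOB1 (16.1) and ZFP36 (13.5), which overlapped. The plot of FPKM per library shows the 8 genes side by side.

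**Figure D1:**
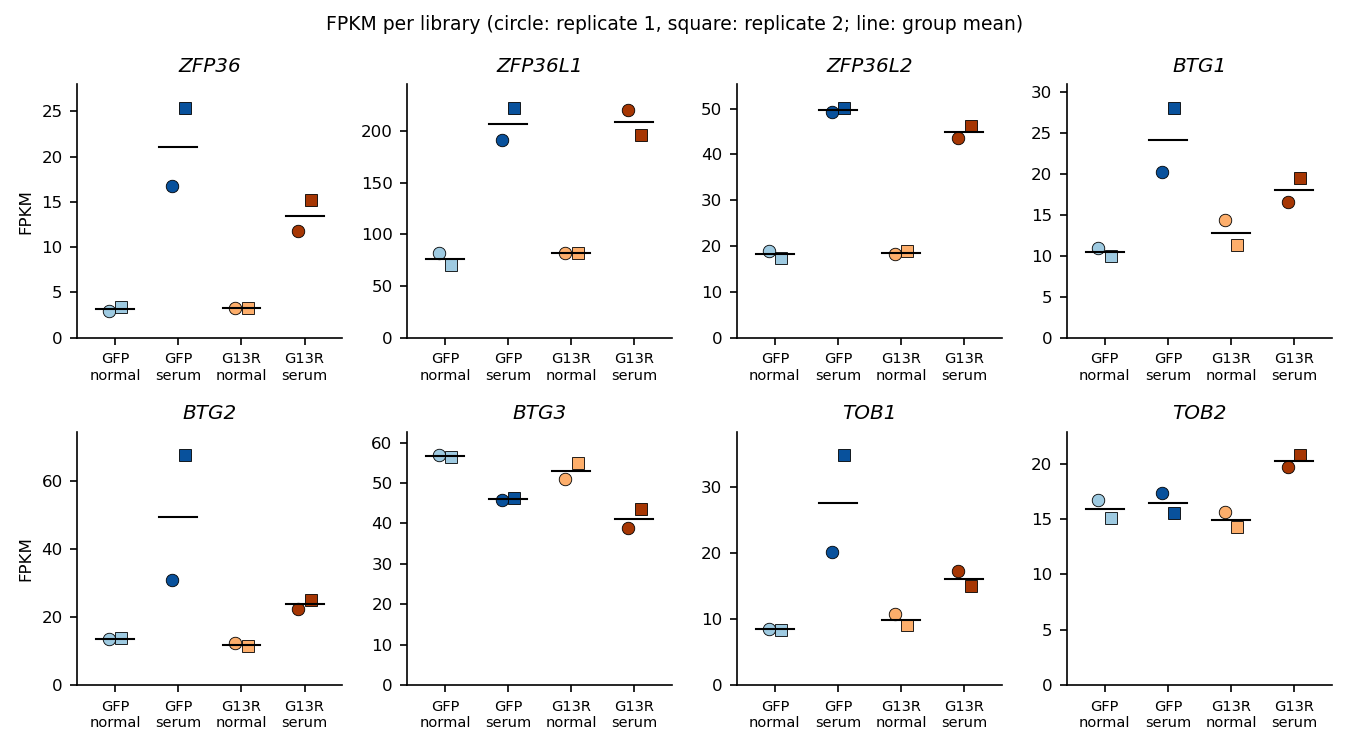
FPKM (vertical axes, linear, from 0, each panel on its own scale) of the 8 genes in the 8 libraries; circles are replicate 1, squares replicate 2 and lines the group mean. The ZFP36 genes are higher in the serum libraries of both cell types, BTG3 is lower, and for BTG2 and TOB1 GFP serum replicate 2 (67.9 and 34.8 FPKM) lies well above the 3 other serum libraries.

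The first question of the design is what serum did in the control cells. After serum, 6 of the 8 genes rose and 1, BTG3, fell, as called by limma at a Benjamini-Hochberg adjusted p under 0.05, in a contrast where 30.7% of the 12996 genes were called, 14.9% as higher and 15.7% as lower. The libraries of the groups did not overlap for 6 genes that were higher (33.3% of all genes) and 1 that was lower (33%), or 66.3% of all genes in either direction. The median log2 fold change of the 8 was 1.41, beside 0.01 over all genes tested. Fold changes are differences of log2(FPKM + 1), with the standard error after the sign ±, and understate the change of low genes such as ZFP36. In bulk RNA a change in the level per cell and a change in the share of cells that express a gene cannot be told apart.

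ZFP36 (chromosome 19, 39897453 to 39900052, hg19), which encodes tristetraprolin, was at 2.93 and 3.42 FPKM in GFP normal and at 16.8 and 25.4 FPKM in GFP serum replicates 1 and 2. Every serum library lay above both normal libraries, and the group means stood 6.64-fold apart. Its log2 fold change of 2.38 ± 0.20 (adjusted p = 7.39e-05, limma) was the largest of the 8 genes.

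ZFP36L1 (chromosome 14, 69254377 to 69263190), the most abundant family member and a factor known to act on cell cycle and differentiation mRNAs, was at 82.3 and 70.4 FPKM before and at 190.9 and 222.7 FPKM after serum. The groups did not overlap, and the rise was 2.71-fold in FPKM, with a log2 fold change of 1.43 ± 0.11 (adjusted p = 3.57e-05, limma). ZFP36L2 (chromosome 2, 43449541 to 43453748), the third family member, went from 19.0 and 17.4 to 49.2 and 50.2 FPKM, a 2.73-fold rise with a log2 fold change of 1.40 ± 0.10 (adjusted p = 2.74e-05, limma). Its serum libraries were the closest pair of the 3 genes. The span of ZFP36L2 overlaps that of THADA, which stayed between 7.75 and 13.02 FPKM over the 8 libraries, and the sources used here do not give whether the counting used strand.

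BTG2 (chromosome 1, 203274619 to 203278730), a target of p53 and an early growth factor response gene, was at 13.6 and 13.8 FPKM in GFP normal and at 31.0 and 67.9 FPKM in GFP serum. The groups did not overlap, but the serum libraries were 2.19-fold apart, the widest pair of any member in any group. The log2 fold change was 1.68 ± 0.27 (adjusted p = 0.00162, limma), and the call was lost when no filter on low values was used (adjusted p = 0.0581).

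BTG1 (chromosome 12, 92536286 to 92539673), an antiproliferative adaptor that is high in resting cells, was at 10.99 and 9.97 FPKM before and at 20.3 and 28.1 FPKM after serum. That was a 2.31-fold rise without overlap, with a log2 fold change of 1.12 ± 0.17 (adjusted p = 0.00138, limma). Among the 50-base stretches of BTG1 transcripts, 7.77% are shared with the long noncoding RNA LINC01619, so its level carries that uncertainty.

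TOB1 (chromosome 17, 48939584 to 48945339), which links the deadenylase to the poly(A)-binding protein, went from 8.49 and 8.34 to 20.1 and 34.8 FPKM. It rose 3.26-fold in FPKM, with a log2 fold change of 1.55 ± 0.22 (adjusted p = 7.63e-04, limma), and GFP serum replicate 2 was again the higher library. An antisense gene, TOB1-AS1, overlaps it and was at 0.29 to 1.94 FPKM in the 8 libraries. TOB2 (chromosome 22, 41829496 to 41843027), its closest relative, stayed apart from TOB1: it was at 16.7 and 15.1 FPKM before and at 17.4 and 15.6 FPKM after serum. These overlapped, and the log2 fold change of 0.05 (95% interval -0.22 to 0.31) did not pass (adjusted p = 0.805, limma). For TOB2, 7.67% of 50-base stretches are shared with AC007228.1.

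BTG3 (chromosome 21, 18965971 to 18985265), the most abundant BTG gene in normal growth, moved the other way. It was at 57.0 and 56.4 FPKM in GFP normal and at 45.8 and 46.4 FPKM in GFP serum. The libraries of each group lay within 1.01-fold of each other and the groups did not overlap. The log2 fold change was -0.29 ± 0.09 (adjusted p = 0.0377, limma), and this small fall was not called in 8 of 14 alternative analyses, among them quantile normalization (-0.18, adjusted p = 0.151), leaving out any 1 of the 4 GFP libraries (adjusted p from 0.0731 to 0.145) and leaving out G13R normal replicate 2 (adjusted p = 0.0503).

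The rise of ZFP36, BTG1, BTG2 and TOB1 was larger in GFP serum replicate 2, the library that stood apart, in which FOS was at 242.8 FPKM against 109.8 FPKM in replicate 1. Without that library the log2 fold changes were 2.09 for ZFP36, 1.13 for BTG2, 1.17 for TOB1 and 0.89 for BTG1, and each of the 6 rises was still called, while BTG3 was not.

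The same comparison in cells with the actin mutant showed the ZFP36 genes rising again. Of the 8 genes 5 rose, BTG3 fell and 2 did not pass, in a contrast where 12.9% of all genes were called, 8.26% as higher and 4.62% as lower. The serum and normal libraries did not overlap for any of the 8 genes (7 higher, 1 lower), as was so for 60.7% of all genes (34.3% higher, 26.4% lower). The median log2 fold change of the 8 was 0.79, beside 0.04 over all genes.

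ZFP36 was at 3.31 and 3.27 FPKM in G13R normal and at 11.8 and 15.2 FPKM in G13R serum. The rise of the means was 4.10-fold, with a log2 fold change of 1.75 ± 0.20 (adjusted p = 9.33e-04, limma). ZFP36L1 went from 82.3 and 82.2 to 220.8 and 196.3 FPKM (log2 fold change 1.33 ± 0.11, adjusted p = 1.09e-04, limma). Both serum libraries of ZFP36L1 were inside the range of the GFP serum libraries. ZFP36L2 went from 18.3 and 18.9 to 43.6 and 46.2 FPKM (log2 fold change 1.23 ± 0.10, adjusted p = 1.09e-04, limma). The serum calls of these 3 genes were kept in all 14 alternative analyses, in GFP and in G13R cells.

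The BTG and TOB genes gave smaller values. BTG2 was at 12.3 and 11.5 FPKM before and 22.4 and 25.1 FPKM after serum in G13R cells, a 1.99-fold difference. Its log2 fold change of 0.94 ± 0.27 passed narrowly (adjusted p = 0.0478, limma). TOB2, which did not pass in GFP cells, was at 15.6 and 14.3 FPKM before and 19.7 and 20.8 FPKM after serum (log2 fold change 0.42 ± 0.12, adjusted p = 0.0481, limma). Both calls were lost in 9 of 14 alternative analyses, among them median-ratio scaling (adjusted p = 0.0522 and 0.0736) and leaving out any 1 of the 4 G13R libraries or of the 2 GFP normal libraries (adjusted p from 0.0687 to 0.206 for BTG2 and from 0.0645 to 0.213 for TOB2).

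BTG1 stood at 14.3 and 11.4 FPKM in G13R normal and at 16.6 and 19.5 FPKM in G13R serum, without overlap. Its log2 fold change of 0.47 ± 0.17 did not pass (adjusted p = 0.106, limma). TOB1 stood at 10.7 and 9.001 FPKM and at 17.2 and 14.9 FPKM, and 0.65 ± 0.22 did not pass either (adjusted p = 0.0741, limma). Without GFP serum replicate 1, which enters the shared estimate of the spread, both passed with adjusted p of 0.0486 and 0.00965, and TOB1 also passed without GFP serum replicate 2 (adjusted p = 0.0105) and when the G13R libraries were fitted alone (adjusted p = 0.0178). BTG3 fell from 50.9 and 55.0 to 38.9 and 43.5 FPKM (log2 fold change -0.36 ± 0.09, adjusted p = 0.0339, limma), a call lost in 7 of 14 alternative analyses, with adjusted p from 0.0553 to 0.213 without any 1 of the G13R or GFP normal libraries. It was the one gene of the 8 with lower levels after serum in both cell types.

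**Figure D2:**
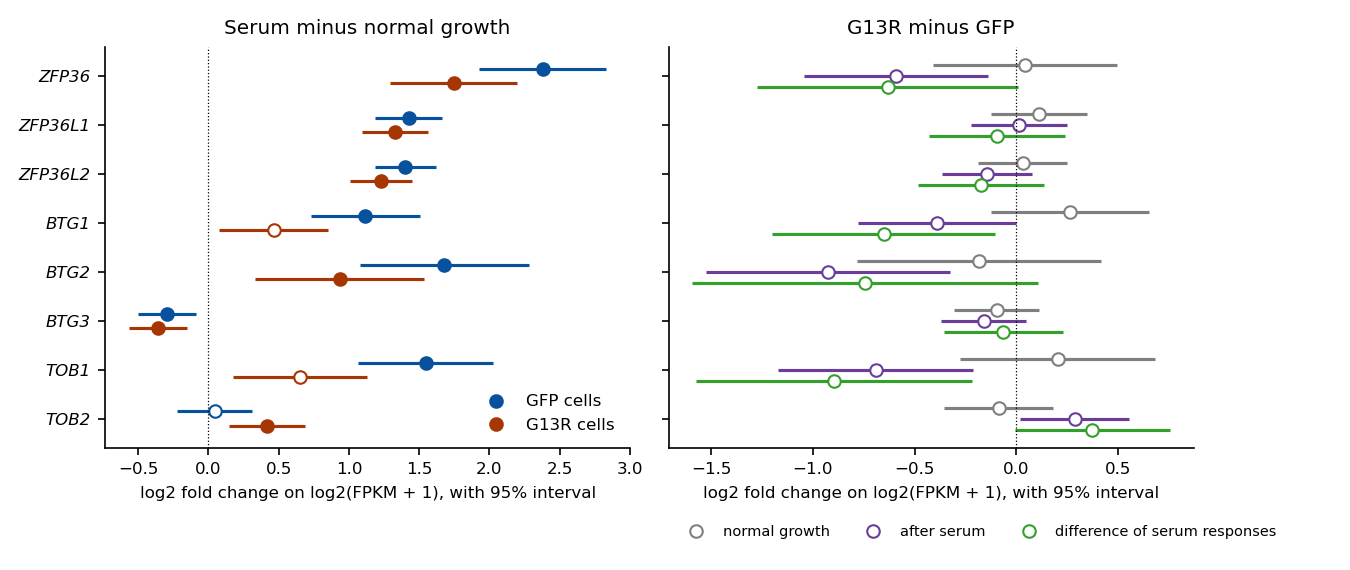
Log2 fold changes on the log2(FPKM + 1) scale with 95% intervals, for serum minus normal growth (left; GFP blue, G13R orange) and for G13R minus GFP (right; normal growth grey, after serum purple, difference of the serum responses green). Filled points passed at an adjusted p under 0.05 and open points did not; on the left the ZFP36 genes lie between 1.23 and 2.38, and on the right no point is filled.

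The second question is whether these genes differed between G13R and GFP cells. None of the 4 groups overexpressed unmutated actin. An effect of the substitution therefore cannot be told apart from one of added actin or of the transgene. In normal growth 0 of the 8 passed, by limma, in a contrast where 0.0462% of all genes (6) were called. Their log2 fold changes for G13R minus GFP ran from -0.18 (BTG2) to 0.26 (BTG1), with adjusted p from 0.511 to 0.949, and 0 of the 8 had an unadjusted p under 0.05, against 15.1% of all genes. The median of the 8 was 0.04, beside -0.07 over all genes tested. The libraries of the 2 cell types did not overlap for 2 genes that were higher in G13R cells (BTG1 and TOB1; 14.4% of all genes) and 2 that were lower (BTG2 and BTG3; 34.3%), or 48.7% of all genes in either direction. For ZFP36L1 the 95% interval was -0.13 to 0.35 and for ZFP36L2 it was -0.19 to 0.25, so differences within those bounds are not excluded.

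After serum 0 of the 8 passed, where 0.823% of all genes (107) were called. Unadjusted p-values were under 0.05 for 5 of the 8, against 20.8% of all genes. The median log2 fold change of the 8 was -0.28, beside -0.03 over all genes tested. BTG2 was at 22.4 and 25.1 FPKM in G13R serum and at 31.0 and 67.9 FPKM in GFP serum, a log2 fold change of -0.93 ± 0.27 (adjusted p = 0.107, limma). TOB1 was at 17.2 and 14.9 against 20.1 and 34.8 FPKM, or -0.69 ± 0.22 (adjusted p = 0.121, limma). For these genes the mutant's libraries lay below both control libraries.

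ZFP36, at 11.8 and 15.2 against 16.8 and 25.4 FPKM, differed by -0.59 ± 0.20 (adjusted p = 0.145, limma), and BTG1 by -0.39 ± 0.17 (adjusted p = 0.239, limma). TOB2 had the opposite sign, at 0.29 ± 0.12 (adjusted p = 0.216, limma). In all, 6 genes lay lower and 1 higher in G13R serum without overlap, as 29.4% and 22.6% of all genes did, or 51.9% in either direction. ZFP36L1 overlapped, with a difference of 0.01 and an interval of -0.22 to 0.25.

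These values turn on 1 control library. Without GFP serum replicate 1, which leaves the outlying replicate 2 as the only GFP serum library and takes its spread from the other groups, BTG2 (-1.48, adjusted p = 4.71e-04), TOB1 (-1.07, adjusted p = 0.00442), ZFP36 (-0.88, adjusted p = 0.0221) and BTG1 (-0.62, adjusted p = 0.047) were called lower in G13R serum, and 1620 genes in all passed. Without GFP serum replicate 2 in turn, 0 of the 8 passed and 9 genes in all, and BTG2 differed by -0.38.

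The difference between the serum responses, G13R minus GFP, was tested as an interaction. It was below 0 for 7 of the 8 genes, with a median of -0.40 beside 0.04 over all genes tested. For ZFP36L1 (-0.10) and BTG3 (-0.06) the sign turned in some fits that left out 1 library. By limma 0 of the 8 passed, as did 0% of all genes, with 1533 of the 12996 genes at an unadjusted p under 0.05. The lowest were TOB1, at -0.89 ± 0.30 (adjusted p = 0.31, limma), and BTG2, at -0.74 ± 0.38 (adjusted p = 0.472, limma). BTG1, at -0.65 ± 0.25 (adjusted p = 0.35, limma), was, with TOB1, 1 of the 2 genes at an unadjusted p under 0.05, and ZFP36 was at -0.63 ± 0.29 (adjusted p = 0.427, limma). TOB2 was at 0.37 ± 0.17 (adjusted p = 0.431, limma). Without GFP serum replicate 1, BTG2 (-1.30, adjusted p = 0.00614) and TOB1 (-1.28, adjusted p = 0.0129) passed, among 486 genes. Without GFP serum replicate 2 the difference shrank to -0.19 for BTG2 and -0.51 for TOB1, and 0 genes passed. The serum contrasts and the G13R contrasts share libraries, so their values for 1 gene are not independent.

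Summed levels show how each family was made up. The summed level of the 3 ZFP36 genes was 97.8 ± 9.22 FPKM (SD, n = 2) in GFP normal and 277.6 ± 29.3 FPKM in GFP serum, and 104.2 ± 0.35 and 266.9 ± 13.1 FPKM in the G13R groups. ZFP36L1 made up 74.3 to 79.9% of the sum in each of the 8 libraries. The share of ZFP36 itself was 2.81 and 3.75% in GFP normal and 6.53 and 8.52% in GFP serum libraries, and 3.18 and 3.13% against 4.27 and 5.89% in G13R cells.

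The BTG and TOB sum was 105.2 ± 2.196 FPKM in GFP normal and 163.7 ± 41.1 FPKM in GFP serum (134.6 and 192.7 FPKM), and 102.5 ± 2.01 and 119.3 ± 6.39 FPKM in the G13R groups. BTG3 was 53.4 and 54.4% of the sum in GFP normal and 34.0 and 24.1% in GFP serum libraries, and 49.0 and 54.4% against 33.8 and 35.1% in G13R cells. Its own mean level went from 56.7 to 46.1 FPKM in GFP cells while the sum was higher. BTG2 took the largest part of the shift in GFP cells, from 12.7 and 13.3% to 23.1 and 35.2%, and in G13R cells it went from 11.9 and 11.4% to 19.5 and 20.3%. These shares are a description and were not tested.

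**Figure D3:**
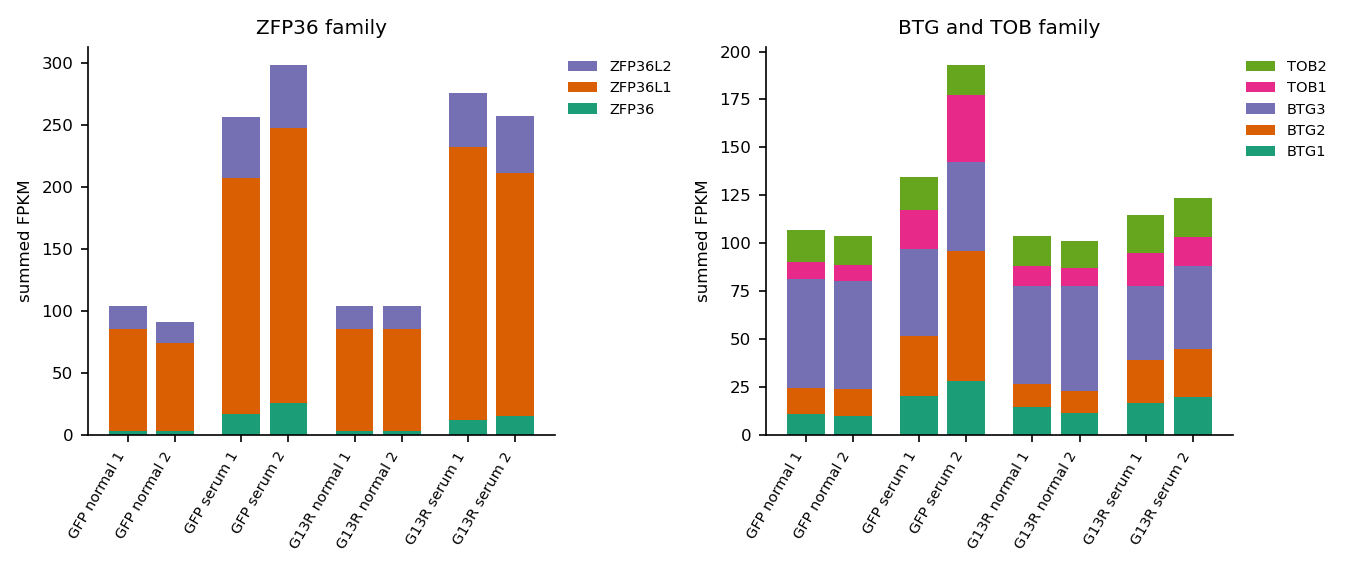
Summed FPKM (vertical axes, linear, from 0) of the 3 ZFP36 genes (left) and the 5 BTG and TOB genes (right) in each of the 8 libraries, with 1 colour per gene. ZFP36L1 fills most of each left bar (74.3 to 79.9%), and on the right BTG3 makes up 49.0 to 54.4% of each bar in normal growth and 24.1 to 35.1% after serum.

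For each gene the 3 others with the most alike pattern over the 8 libraries were found by Pearson's r of log2(FPKM + 1). All points share the split between normal and serum libraries, so high values are common, and r is given as a description. For ZFP36L2 they were EGR1, DUSP5 and RGS16 (r from 0.995 to 0.996), and for ZFP36L1 they were CRMP1, SVIL and COMTD1 (0.992 to 0.994). EGR1, an immediate-early zinc finger factor, went from 20.0 and 18.3 to 191.4 and 271.8 FPKM in GFP and from 22.7 and 20.2 to 170.5 and 209.5 FPKM in G13R cells. For ZFP36 they were LSS, TCEA2 and GSN (0.996 to 0.998), where LSS encodes a sterol synthesis enzyme and GSN encodes the actin-severing protein gelsolin.

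BTG2 was most like NYNRIN, GOLGB1 and GNAS (r from 0.995 to 0.996), BTG1 like TSPYL1, SLC2A6 and ELF1 (0.990 to 0.995) and TOB1 like NAGK, PRKCA and FAM120B (0.991). Each of these 9 genes was highest in GFP serum replicate 2, as were the genes named above for ZFP36 and ZFP36L2. BTG3 was most like MMADHC, M6PR and ZNF207 (0.983 to 0.987) and TOB2 like BDH1, GRK5 and FBXL8 (0.963 to 0.979). Between the 8 genes themselves, r was 0.968 for BTG2 with TOB1, 0.967 for BTG1 with TOB1 and 0.988 for ZFP36L1 with ZFP36L2, and it was 0.284 for TOB1 with TOB2.

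The partners and effectors of these proteins were taken from 7 lists with 131 genes, of which 130 were in the table and 122 were tested. Leaving out the AU-rich transcripts, 89 genes of the decay machinery were tested. After serum in GFP cells 5 rose and 26 fell, with a median log2 fold change of -0.15 beside 0.01 for all genes. Of the 89, MAP2K6 and PAIP2B passed the filter only through serum libraries. Without them 87 were tested in GFP cells, of which 4 rose and 26 fell, with a median of -0.16. Over all genes 14.9% were called higher and 15.7% lower in that contrast. In G13R cells 5 rose and 4 fell, with a median of -0.09 beside 0.04, where 8.26% of all genes were called higher and 4.62% lower. Over the 14 alternative analyses the falls in GFP cells numbered 15 (without the filter) to 32 and the rises 3 to 7. The G13R counts turned on single libraries: without either G13R serum library 1 rose and 0 fell, without G13R normal replicate 1 or 2 there were 2 rises with 1 or 2 falls, and without either GFP serum library 5 rose and 9 fell.

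Of the CCR4-NOT complex, the shared deadenylase that both families recruit, 11 of 12 subunits were in the table and tested. RQCD1, a scaffold-bound subunit, went from 47.5 ± 2.56 to 31.1 ± 2.33 FPKM in GFP cells (log2 fold change -0.60 ± 0.10, adjusted p = 0.0017, limma). CNOT7, 1 of the catalytic subunits that BTG and TOB proteins bind, went from 47.3 ± 1.17 to 31.7 ± 1.33 FPKM (-0.56 ± 0.12, adjusted p = 0.00781, limma), a call lost without GFP normal replicate 1 and without the filter (adjusted p = 0.0684, limma). These 2 fell, a share of the 11 near the 15.7% of all genes called lower, and the other 9 did not pass, although 2 rose without GFP serum replicate 1. In G13R cells 0 of the 11 passed, also in each of the 14 alternatives. Over all genes 12.9% were called in that contrast. The median of the 11 was -0.02 in GFP and -0.03 in G13R cells.

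Among 9 other deadenylase and poly(A)-binding genes, PABPC4, a cytoplasmic poly(A)-binding protein, fell from 187.2 ± 3.14 to 135.0 ± 12.5 FPKM in GFP cells (-0.47 ± 0.09, adjusted p = 0.00407, limma), and 0 passed in G13R cells. That 1 of 9 stands beside 15.7% of all genes called lower in GFP cells, and the 0 beside 12.9% called either way in G13R cells. The 9 include PAIP2B, which passed the filter only through serum libraries and was not called. Of 18 decapping genes 3 fell in GFP cells, LSM7 (-0.53), LSM2 (-0.53) and LSM1 (-0.46), all parts of the LSM ring that binds shortened tails. As a share this is also near the 15.7% of all genes. The LSM1 and LSM2 calls were lost without GFP normal replicate 2 (adjusted p = 0.0749 and 0.0552) and without the filter (0.103 and 0.0587), and that of LSM1 also without GFP normal replicate 1 (0.0991) or GFP serum replicate 2 (0.122). In G13R cells, where 4.62% of all genes were called lower, 2 fell, LSM14A (-0.49, adjusted p = 0.00842, limma) and LSM5 (-0.34, adjusted p = 0.0185, limma). Both were lost without G13R normal replicate 1 or either G13R serum library (adjusted p from 0.0599 to 0.144), and LSM5 also without G13R normal replicate 2 (0.0898).

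The exosome and SKI genes degrade mRNA from the tail end. In GFP cells 8 of 15 fell and 0 rose, with a list median of -0.41, in the contrast where 15.7% of all genes were called lower. EXOSC4 went from 78.3 ± 4.78 to 44.2 ± 5.65 FPKM (-0.81 ± 0.11, adjusted p = 5.71e-04, limma) and EXOSC5 from 30.6 ± 1.90 to 18.6 ± 4.76 FPKM (-0.71 ± 0.15, adjusted p = 0.00684, limma). The falls numbered 2 to 10 over the alternatives: 2 without the filter, 4 without GFP serum replicate 2 and 5 without GFP normal replicate 1. In G13R cells 0 fell, where 4.62% of all genes were called lower, and the list median was -0.07. After median-ratio scaling, or with only the compared libraries, 2 fell. The list's median in the difference of the responses was 0.24 beside 0.04, with 0 genes called. WDR61, a SKI subunit, was called lower in GFP cells and higher in G13R cells, but its values were low: 2.82 and 1.09 FPKM in GFP normal, 0.40 and a listed 0 in GFP serum, 1.26 and 0.43 in G13R normal and 5.02 and 2.46 FPKM in G13R serum. Its calls were lost in 3 of 14 alternatives in GFP cells (adjusted p up to 0.212, without GFP normal replicate 1) and in 7 of 14 in G13R cells (up to 0.259, without G13R serum replicate 1).

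Of 19 tested genes for other proteins that bind the untranslated region after the stop codon, 2 rose and 5 fell in GFP cells, beside 14.9% and 15.7% of all genes. The falls numbered 2 without GFP normal replicate 2, and the rises 1 to 3 over the alternatives. ZC3H12A, the endonuclease Regnase-1, went from 12.5 ± 2.50 to 28.4 ± 3.29 FPKM (1.13 ± 0.16, adjusted p = 7.27e-04, limma). UPF1, the helicase of nonsense-mediated decay, fell by 0.54 on the log2 scale, a call lost without GFP normal replicate 2 (adjusted p = 0.0605). In G13R cells, where 8.26% of all genes were called higher, ZC3H12A alone passed, from 15.3 ± 1.64 to 23.5 ± 2.23 FPKM (0.59 ± 0.16, adjusted p = 0.0362, limma), a call lost in 6 of 14 alternatives, among them leaving out any 1 of the 4 G13R libraries (adjusted p from 0.0874 to 0.199).

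The p38-MK2 pathway phosphorylates ZFP36, the 14-3-3 proteins then bind it, and the phosphatase PP2A reverses this. MAP2K6, a kinase above p38, passed the filter only through the GFP serum libraries, at 1.12 and 1.41 FPKM, and lay between a listed 0 and 0.17 FPKM in the other 6, so its call is not counted here (it is 1 of the 5 rises given above for GFP cells). Of the 16 other genes 2 rose and 7 fell in GFP cells, beside 14.9% and 15.7% of all genes. In G13R cells 3 rose and 2 fell, beside 8.26% and 4.62%, and leaving out 1 G13R library left 1 or 2 rises and 0 or 1 falls. PPP2CA, the catalytic PP2A subunit, fell from 147.1 ± 1.34 to 89.0 ± 2.89 FPKM in GFP (-0.72 ± 0.07, adjusted p = 1.74e-04, limma) and from 119.8 ± 2.76 to 89.7 ± 0.68 FPKM in G13R cells (-0.41 ± 0.07, adjusted p = 0.0075, limma). MAP2K3, another kinase above p38, fell by 0.74 and 0.55 on the log2 scale in GFP and G13R cells. In G13R cells the calls of PPP2CA and MAP2K3 were lost without G13R normal replicate 1 or either G13R serum library (adjusted p from 0.0574 to 0.129), and that of MAP2K3 also without G13R normal replicate 2 (0.0821). SFN, the 14-3-3 sigma protein, rose from 182.2 ± 8.86 to 344.0 ± 12.5 FPKM in G13R cells (0.91 ± 0.09, adjusted p = 3.82e-04, limma). The other 2 rises in G13R cells were MAPK11, a p38 kinase (0.54 ± 0.11, adjusted p = 0.0134, limma), lost in 3 of 14 alternatives, and YWHAH, a 14-3-3 protein (0.35 ± 0.09, adjusted p = 0.0347, limma), lost in 6 of 14. SFN and MAPK11 were higher with serum in GFP cells too, without overlap, as were 33.3% of all genes. There SFN went from 184.1 and 209.2 to 289.1 and 255.4 FPKM, and MAPK11 from 16.4 and 18.3 to 25.5 and 25.2 FPKM. YWHAH overlapped in GFP cells, at 83.6 and 93.9 FPKM before and 93.2 and 94.8 FPKM after serum.

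Of 40 transcripts known for AU-rich elements, a class that ZFP36 proteins act on, 33 were tested. Of the 39 list genes matched in the GENCODE transcripts, 29 held TATTTAT after the stop codon, beside 28.9% of all genes. In GFP cells 15 rose and 4 fell, beside 14.9% and 15.7% of all genes, with a median of 0.45. The rises numbered 12 to 15 over the alternatives, and the falls 2 without GFP normal replicate 1. In G13R cells 12 rose and 3 fell, beside 8.26% and 4.62%, with a median of 0.28. Those counts were 2 and 0 without the filter, and 8 to 10 and 1 to 2 without 1 G13R library. FOS went from 4.33 ± 0.41 FPKM to 109.8 and 242.8 FPKM in GFP (4.95 ± 0.30, adjusted p = 2.25e-05, limma) and from 5.77 ± 1.31 to 43.2 ± 7.75 FPKM in G13R cells (2.71 ± 0.30, adjusted p = 7.36e-04, limma). FOSB rose by 3.34 ± 0.32 in GFP cells (adjusted p = 1.20e-04, limma), and CSF2, a cytokine mRNA, by 1.82 ± 0.25 in G13R cells (adjusted p = 0.00216, limma). Both were also higher with serum, without overlap, in the other cell type. That was so for 34.3% of all genes in G13R and 33.3% in GFP cells. FOSB went from 2.01 and 2.60 to 5.57 and 3.23 FPKM in G13R cells. CSF2 went from 1.60 and 2.15 to 5.17 and 6.37 FPKM in GFP cells. In G13R cells the calls of FOS and CSF2 were lost without the filter (adjusted p = 0.0541 and 0.0540). The list was taken from serum and cytokine response genes in part, so its direction is not independent of the treatment.

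Between the cell types after serum, FOS (-1.91 ± 0.30, adjusted p = 0.0376, limma) and CCL2 (-1.78 ± 0.31, adjusted p = 0.0443, limma) were lower in G13R cells, and HMOX1 (0.93 ± 0.14, adjusted p = 0.0376, limma) was higher. These 3 calls were each lost in 9 of 14 alternatives, which include leaving out any 1 library other than GFP serum replicate 1 (adjusted p from 0.0722 to 0.349). WDR61 was also called higher in G13R serum, and the call was lost in 11 of 14.

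**Figure D4:**
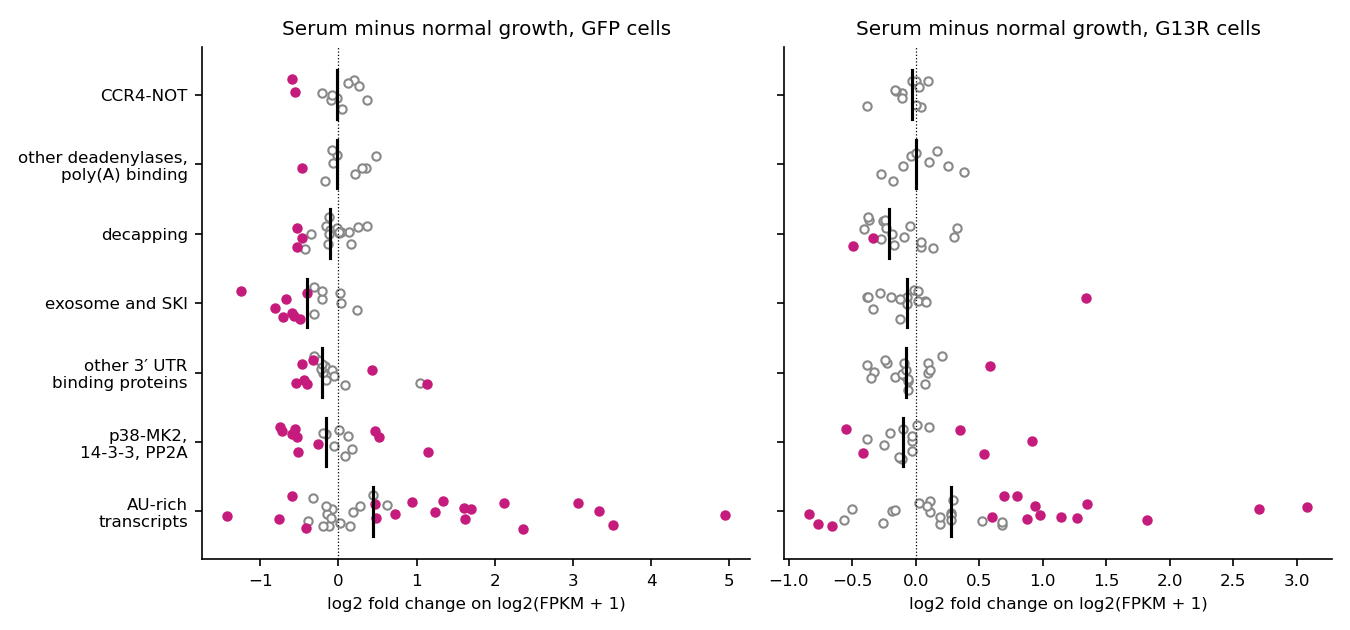
Log2 fold change on the log2(FPKM + 1) scale (horizontal axes) of each tested gene of the 7 lists for serum minus normal growth, in GFP cells (left) and G13R cells (right, with its own scale). MAP2K6, called on the left, passed the filter only through the GFP serum libraries. Filled points passed at an adjusted p under 0.05, open points did not, and black bars are list medians; the exosome median is -0.41 on the left and -0.07 on the right, and that of the AU-rich transcripts is 0.45 and 0.28.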

How the data were processed

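RNA was taken from U2OS cells in 4 groups of 2 libraries, and its poly(A) fraction was sequenced by Illumina HiSeq, per the labels' protocols. The authors deposited 1 table with FPKM for each library. Per the submitters' processing notes the tools were TopHat2 2.0.13 and Cufflinks 2.2.1, and the builds named are hg19 and BDGP5. Column names gave the library (C was taken as normal growth), with 0 per-sample columns unmatched. Gene coordinates are the table's, in hg19, with 1 added to each start because starts count from 0. FPKM keeps no read counts, so depth is unknown and no counting interval could be given.

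The main test was limma 3.58.1 (R 4.3.3) on log2(FPKM + 1), with 1 mean per group, an intensity trend and 4 residual degrees of freedom from the 8 libraries together. The filter kept 12996 genes that reached 1 FPKM in 2 or more libraries. A gene was called at a p under 0.05 after Benjamini-Hochberg adjustment over those genes, in each of 5 contrasts. Named genes were the 8 members, up to 3 called genes with the largest change per list and contrast (all called genes where a list had 5 or fewer), the 3 genes most alike in pattern to each member, and FOS, EGR1 and ACTB. The members and lists were chosen with earlier results of these data known. Promoter sequences are from RefSeq and transcripts from GENCODE version 29, neither of the table's build.

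Alternatives were a pseudocount of 0.1, no filter, median-ratio scaling, quantile normalization, the replicate number as a block, fitting only the compared libraries, and leaving out each library in turn.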

Additional observations from a re-analysis of the deposited data

How the results depend on the processing

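The serum calls of ZFP36, ZFP36L1 and ZFP36L2 were kept in all 14 alternatives in both cell types, as were those of BTG1 and TOB1 in GFP cells. Genes of the 8 called after serum numbered 7 in GFP cells (5 to 7 over the alternatives). In G13R cells 6 were called, 3 without the filter and 3 to 8 over the fits that left out 1 library. Over all genes the count in GFP cells was 3985, with 2282 without the filter and 2155 to 4263 with 1 library left out; in G13R cells it was 1675, 578 and 413 to 2366. Called decay pathway genes in G13R cells numbered 24, 7 without the filter and 10 to 31 with 1 library left out. Of the genes called in G13R cells 1074 of 1675 were higher (64.1%), against 949 of 1802 (52.7%) after median-ratio scaling. The cause of these shifts was not tested, except that each fit without a library has fewer samples.

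For G13R minus GFP in normal growth, 6 genes were called, 11 without the filter, 12 after quantile normalization, 14 with only the compared libraries and 4 to 109 with 1 library left out, of which 0 to 3 were decay pathway genes and 0 were among the 8. After serum the count was 107, with 4 without the filter, 180 after quantile normalization, 6 with only the compared libraries and 5 to 1620 with 1 library left out. Of the 8 genes 0 passed, and 0 to 4 with 1 library left out. Of the decay pathway genes 4 passed, 0 without the filter or with only the compared libraries, 7 after quantile normalization and 0 to 31 with 1 library left out. The share of calls that were higher was 40.2%, and 51.7% after quantile normalization. For the difference of the serum responses 0 genes passed, 1 with a pseudocount of 0.1, 10 without the filter, 2 after quantile normalization and 0 to 486 with 1 library left out, among them 0 to 2 of the 8 and 0 to 17 decay pathway genes.

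With the replicate number as a block, 83 genes passed between G13R and GFP in normal growth and 403 after serum, of which 1 and 9 were decay pathway genes, and the counts among the 8 were 7, 6, 0, 0 and 0 in the 5 contrasts, as without it. Same-numbered libraries deviated together only weakly (r from 0.017 to 0.121 across genes), so they were taken to share only a number; with 2 numbers no closer check of the pairing was possible.

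Signs turned only where values lay near 0 and did not pass. Apart from BTG3 in normal growth (0.0298 for G13R minus GFP after quantile normalization), they turned when 1 library was left out. Over those fits TOB2 after serum in GFP cells ran from -0.0308 to 0.121. In normal growth G13R minus GFP ran from -0.0431 to 0.1265 for ZFP36, from -0.0011 to 0.222 for ZFP36L1 and from -0.03 to 0.0901 for ZFP36L2. After serum it ran from -0.0969 to 0.124 for ZFP36L1. The difference of the responses ran from -0.143 to 0.0152 for BTG3 and from -0.208 to 0.0146 for ZFP36L1.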
